A study of Mus musculus with 2 samples.

Results

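The paralogous microRNA clusters Mir17-92 and Mir106b-25 were examined in mouse gastrocnemius, the large calf muscle. Their 9 genes were chosen by gene symbol and genomic place, 6 on chromosome 14 (Mir17, Mir18a, Mir19a, Mir20a, Mir19b-1 and Mir92a-1) and 3 on chromosome 5 (Mir106b, Mir93 and Mir25), out of 2202 microRNA genes in the tables. The annotation GENCODE M21 holds 7 of these 9 symbols, and Mir18a and Mir92a-1 stand in it under the older names Mir18 and Mir92-1. The series has 1 group of 2 small RNA libraries. Each came from the gastrocnemius of a female mouse of 36 days, a first-generation hybrid of C57BL/6 and CAST/EiJ parents called B6CASTF1/J. The labels count the libraries as biological replicates 1 and 2 and number the females differently, but give both the same donor identifier, so that the spread between them could be technical. The labels name no treatment, and no other genotype or tissue was compared.

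Each cluster is transcribed as a single long precursor from which several hairpins are cut, and each hairpin gives a mature microRNA of about the length of the reads. The Mir17-92 cluster is known as a target of the MYC oncogene and as a driver of proliferation, and the Mir106b-25 cluster lies in the gene of Mcm7, a subunit of the helicase that opens DNA for replication. In skeletal muscle, microRNAs of these clusters are associated with dividing myoblasts rather than with mature fibres. A further paralogous cluster, Mir106a-363, lies on the X chromosome.

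In build mm10 the 6 hairpins of Mir17-92 occupied 836 bases on the plus strand, chr14:115043671-115044506, all within exon 2 of the 2-exon non-coding gene Mir17hg. The 3 hairpins of Mir106b-25 occupied 498 bases on the minus strand, chr5:138165321-138165818, in intron 13 of the 15-exon transcript of Mcm7. A shorter Mcm7 transcript with a retained intron holds Mir93 and Mir25 in its exon 1 and leaves Mir106b outside. For all 9 members the hairpin coordinates of GENCODE were those of RefSeq.

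The sequences show which members can stand in for each other and which cannot be told apart in the counts. A microRNA recognises its targets mainly through its seed, bases 2 to 8 from the 5′ end, given in capitals. The arm of each hairpin that is mainly used is printed 5′ to 3′, from RefSeq for build GRCm38.p6, and the members fall into 4 seed groups. Members with the seed of miR-17 are:
miR-17-5p: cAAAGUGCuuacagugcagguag
miR-20a-5p: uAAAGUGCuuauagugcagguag
miR-106b-5p: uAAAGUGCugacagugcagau
miR-93-5p: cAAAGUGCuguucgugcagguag
The seed of miR-18a differs and belongs to no other member:
miR-18a-5p: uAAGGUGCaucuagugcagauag
The miR-19 seed is shared by the following members:
miR-19a-3p: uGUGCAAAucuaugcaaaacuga
miR-19b-3p: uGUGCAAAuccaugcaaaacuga
The miR-92a seed is carried by a member of each cluster:
miR-92a-3p: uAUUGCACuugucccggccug
miR-25-3p: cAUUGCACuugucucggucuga

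Within a seed group the arms differ by few bases, all outside the seed. Counted from 1 at the 5′ end, with the base of the microRNA named first, miR-17-5p and miR-20a-5p differ by C1U and C12U, and miR-19a-3p and miR-19b-3p by U11C alone. MiR-92a-3p and miR-25-3p differ by U1C, C14U and C18U over their shared length. MiR-17-5p and miR-93-5p differ at 4 positions and miR-17-5p and miR-106b-5p at 3. Between miR-17-5p and miR-18a-5p there are 6 differences, of which A4G lies in the seed. The GC content of the main arms ran from 34.8% in miR-19a-3p to 57.1% in miR-92a-3p.

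Counts are reads assigned to a hairpin gene on its own strand, so the arms of a hairpin are counted together. Reads with more than 1 genomic match are totalled apart and credited to no gene. Of the 9 main arms, 7 occur in a single microRNA hairpin of the RefSeq table. The arms of Mir19b-1 and Mir92a-1 occur again, base for base, in Mir19b-2 and Mir92a-2 on the X chromosome. With 4 bases on each side and the shared arm in capitals, the hairpins read:
Mir19b-1: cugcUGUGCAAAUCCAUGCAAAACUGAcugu
Mir19b-2: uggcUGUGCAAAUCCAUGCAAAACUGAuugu
Mir92a-1: auggUAUUGCACUUGUCCCGGCCUGuuga
Mir92a-2: aaagUAUUGCACUUGUCCCGGCCUGagga
The longest stretch shared by the Mir19b hairpins was 25 bases and that of the Mir92a hairpins 22 bases. In both pairs it ends at the last base of the arm, so a read of exactly the arm matches both genes. A read that runs past its 3′ end into the hairpin could be placed in 1 of them. The other arms, miR-19b-1-5p and miR-92a-1-5p, each lie in a single hairpin, so their reads could be placed as well. For Mir19b-1 and Mir92a-1 the counts therefore cover a part of the main arm's microRNA that is not known and may be none. The other 7 members shared no stretch of 20 bases with another hairpin, the longest being 17 bases.

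MicroRNA genes took 1593787 reads of replicate 1 and 2078101 of replicate 2. Reads matching several places were 4.51 and 5.25 times as many. Detection was set at 10 or more reads in each library, a level that 273 genes reached. Of 9 skeletal muscle microRNA genes all had reads, 7 were detected, and together they held 2.21% and 6.98% of gene-assigned reads, mostly from Mir206. All marker genes of other cell types had reads too, and the endothelial ones held 8.86% and 11.3%. The presence of reads therefore does not by itself tell muscle from other tissue. The shares of these lists leave out multiply matched reads. They do not measure the mature microRNA of any marker gene whose arm lies in several hairpins, so the lists cannot be ranked by them.

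Of the 9 members, 8 had at least 1 read and 7 were detected. Together the clusters held 12316 reads in replicate 1 and 10828 in replicate 2, or 0.773% (95% Wilson interval 0.759 to 0.786) and 0.521% (0.511 to 0.531) of gene-assigned reads. Intervals cover counting error only, since they treat each read of a library as an independent draw. PCR copies, which are not independent, cannot be recognised. Mir17-92 held 0.450% and 0.324%, a mean of 0.387% ± 0.0890 (SD, n = 2). Mir106b-25 held 0.323% and 0.197%, a mean of 0.260% ± 0.0889. Mir17-92 was the higher cluster in each library, and the ranges of the clusters did not overlap, although the value of Mir106b-25 in replicate 1 lay close to that of Mir17-92 in replicate 2. Restricted to members whose main arm lies in a single hairpin, which leaves out Mir92a-1 and Mir19b-1, Mir17-92 held 0.349% ± 0.0999. It was still the higher cluster in each library, but the ranges then overlapped.

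The level of each member is given in CPM, the reads of a gene per 1000000 gene-assigned reads of its library. A read spans the whole mature microRNA, so counts were not divided by length, and hairpins were 80 to 107 bases long. Mir17, the leading hairpin of its cluster and the highest member, had 3778 reads in replicate 1 and 3439 in replicate 2, which is 2370.45 and 1655 CPM. It ranked 44th of 273 detected genes by mean CPM. Mir20a, with the same seed, had 2508 and 2071 reads, or 1574 and 997 CPM. Both had fewer CPM in replicate 2.

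The rest of Mir17-92 was far lower. Mir18a, whose microRNA is known to target genes of the extracellular matrix, had 404 and 280 reads, or 253 and 135 CPM. Mir92a-1, known for its part in endothelial cells and blood vessel growth, had 477 and 941 reads, or 299 and 453 CPM, and was the only detected member with more CPM in replicate 2 than in replicate 1. Mir19a had 2 reads in replicate 1 and 0 in replicate 2. No read was assigned to Mir19b-1 in either library. A count of 0 leaves room for up to 3 reads placed at the locus, or 1.88 CPM in the smaller library, replicate 1, and 1.44 CPM in the larger.

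The 2 members of the miR-19 seed group thus had hardly any assigned reads, while the hairpins next to them, Mir18a, Mir20a and Mir92a-1, had between 280 and 2508. For Mir19b-1 the identical arm in Mir19b-2 is a limit on any statement of its level. Mir19a has no such copy among annotated hairpins, and of all GENCODE transcripts only those of Mir19a and of its host Mir17hg hold the arm. The cause of its low count was not tested.

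In Mir106b-25 the middle hairpin was the highest. Mir93 had 3098 and 2724 reads, or 1944 and 1311 CPM, and ranked 52nd. Mir106b, the first hairpin of the cluster, had 1730 and 1008 reads, or 1085 and 485 CPM. Mir25, which carries the miR-92a seed and is known to repress pro-apoptotic genes, had 319 and 365 reads, or 200.2 and 176 CPM.

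**Figure D1:**
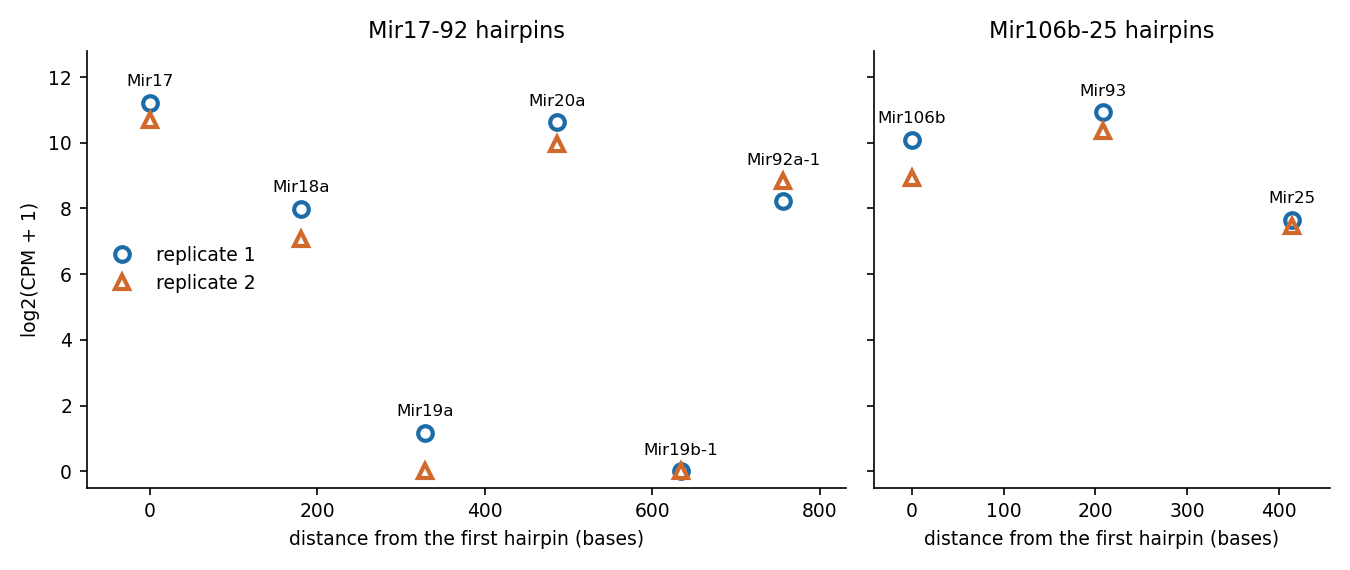
Level of each hairpin, as log2(CPM + 1), against its distance in bases from the first hairpin of its cluster in the direction of transcription, for Mir17-92 (left) and Mir106b-25 (right), with circles for replicate 1 and triangles for replicate 2. Mir17, Mir20a and Mir93 stand highest, and Mir19a and Mir19b-1 lie at or near 0 between hairpins that had 135 CPM or more.

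By mean CPM the order was Mir17 (2013 ± 506), Mir93 (1627 ± 448), Mir20a (1285 ± 408), Mir106b (785 ± 425), Mir92a-1 (376 ± 109), Mir18a (194 ± 84.0) and Mir25 (188 ± 17.3, SD, n = 2). Mir17, Mir93, Mir20a and Mir106b formed a run in which the values of each overlapped those of the next. The lower value of Mir106b lay above both values of Mir92a-1. Mir17, Mir93 and Mir20a nevertheless kept their order within each library. Mir92a-1 did not overlap Mir18a. Mir18a and Mir25 overlapped and changed places between the libraries, and Mir25 came before Mir18a when CPM was divided by hairpin length. Mir25 in turn did not overlap Mir19a.

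Assigned reads were spread unequally over hairpins grouped by the seed of their main arm. These shares pool both arms of a hairpin and leave out multiply matched reads, so they do not measure the mature microRNAs of the miR-19 and miR-92a groups, where miR-19b-3p and miR-92a-3p each lie in 2 hairpins. Hairpins of the miR-17 group took 90.2% of all member reads in replicate 1 and 85.4% in replicate 2. Those of the miR-92a group took 6.46% and 12.1%, Mir18a 3.28% and 2.59%, and those of the miR-19 group 0.0162% and 0%. Over every measured gene with the miR-17 seed, including those on the X chromosome, there were 7002 and 4479.6 CPM. Of these, Mir17-92 gave 56.3% and 59.2%, Mir106b-25 gave 43.3% and 40.1%, and the X chromosome gave 0.403% and 0.720%.

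The composition of each cluster was compared between the libraries, a measure that needs no scaling. In Mir17-92, Mir17 held 52.7% of the reads in replicate 1 (95% Wilson interval 51.5 to 53.9) and 51.1% (49.9 to 52.3) in replicate 2, so that the intervals overlapped. Mir20a held 35.0% (33.9 to 36.1) and 30.8% (29.7 to 31.9). Mir92a-1 held 6.65% (6.10 to 7.25) and 14.0% (13.2 to 14.8), the widest change of share in that cluster. Its reads, which cover an unknown part of miR-92a-3p or none of it, are in the total, so every share of Mir17-92 depends on them. The similar shares of Mir17 are thus no sign of a steady level within the cluster: per read of Mir20a, Mir17 had 1.51 and 1.66 reads. In Mir106b-25, Mir106b held 33.6% (32.3 to 34.9) and 24.6% (23.3 to 25.9), and Mir93 held 60.2% (58.8 to 61.5) and 66.5% (65.0 to 67.9). Mir25 held 6.20% (5.57 to 6.89) and 8.91% (8.07 to 9.82).

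**Figure D2:**
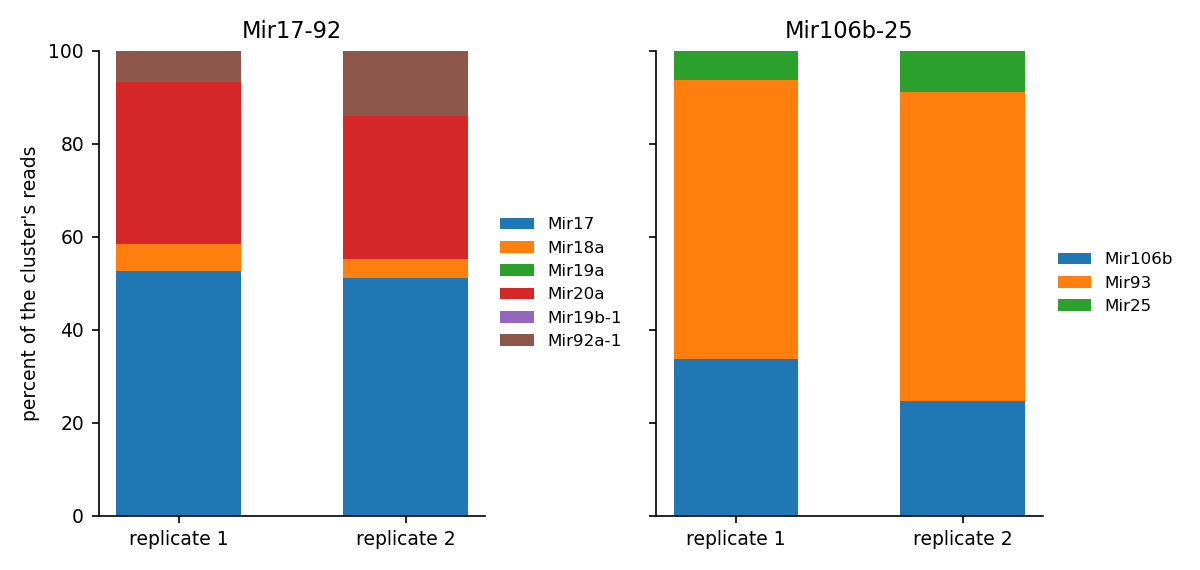
Share of each hairpin in the reads of its cluster, in percent, for Mir17-92 (left) and Mir106b-25 (right), with 1 bar per library. The share of Mir92a-1 was 6.65% in replicate 1 and 14.0% in replicate 2, and that of Mir106b was 33.6% and 24.6%. Mir17 held 52.7% and 51.1% of a total that includes the reads of Mir92a-1.

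Ratios between hairpins of the same precursor differed between the libraries by unequal amounts. There were 1.51 reads of Mir17 per read of Mir20a in replicate 1 and 1.66 in replicate 2, and 1.22 and 1.26 reads of Mir17 per read of Mir93, which lies on another chromosome. The ratio of Mir17 to Mir92a-1 was 7.92 and 3.65, and that of Mir93 to Mir106b was 1.79 and 2.70. The 95% counting interval of the change in ratio was 1.02 to 1.19 for Mir17 and Mir20a, 0.409 to 0.521 for Mir17 and Mir92a-1, and 1.37 to 1.66 for Mir93 and Mir106b. It did not include 1, a ratio equal in both libraries, in any of the 5 pairs compared within a cluster. For Mir17 and Mir93, of different clusters, it was 0.965 to 1.11 and included 1. This was the only pair compared across the clusters, so it does not show that ratios between clusters were steadier than those within them. Mir20a, for example, had 1574 and 997 CPM, while Mir106b had 1085 and 485 CPM, a larger fall.

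To compare levels between the libraries, sizes were scaled with TMM factors, which set the bulk of the genes to a ratio near 1. Each of the 273 detected genes then had its reads in replicate 1 and replicate 2 set against the split of the scaled sizes by an exact binomial test (two-sided), and p-values were adjusted over all of them by the Benjamini-Hochberg method at 0.05. It compares these 2 libraries and not conditions. Of the 7 detected members, 5 were lower in replicate 2, Mir92a-1 was higher and Mir25 did not pass. The test called 63.0% of all detected genes, 29.7% lower and 33.3% higher in replicate 2, so a call as such is common. With upper-quartile scaling the calls over all genes were 71 higher and 95 lower in place of 91 higher and 81 lower, while the members' calls stayed at 5 lower and 1 higher. The median log2 ratio was -0.50 over the 7 detected members and 0.02 over all detected genes.

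Mir106b had the widest difference of the members, 2.14-fold lower in replicate 2 (95% counting interval 1.98 to 2.31, log2 ratio -1.10, adjusted p = 2.76e-84 by the exact binomial test). Mir18a was 1.80-fold lower (1.54 to 2.10) and Mir20a 1.51-fold lower (1.42 to 1.60). Mir93 and Mir17 were 1.42-fold (1.34 to 1.49) and 1.37-fold lower (1.31 to 1.43). Mir92a-1 was 1.58-fold higher (1.42 to 1.77), and the level of Mir25 in replicate 2 was 0.919 times that in replicate 1 (0.789 to 1.07). Log2 ratios thus ran from -0.84 to 0.66 in Mir17-92 and from -1.10 to -0.12 in Mir106b-25.

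None of the members was called when the spread between the libraries entered the test. With the exact test of edgeR under a common dispersion, a coefficient of variation of 0.335 estimated from these same libraries and so holding the very difference tested, 0 of the 7 members and 1.47% of all detected genes passed. The adjusted p was 1 for every member, 0 members had an unadjusted p under 0.05, and the lowest unadjusted p, that of Mir106b, was 0.120 by edgeR. The median absolute log2 ratio of all detected genes was 0.36, and 33 of them differed by 2-fold or more, among them Mir106b alone of the members.

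**Figure D3:**
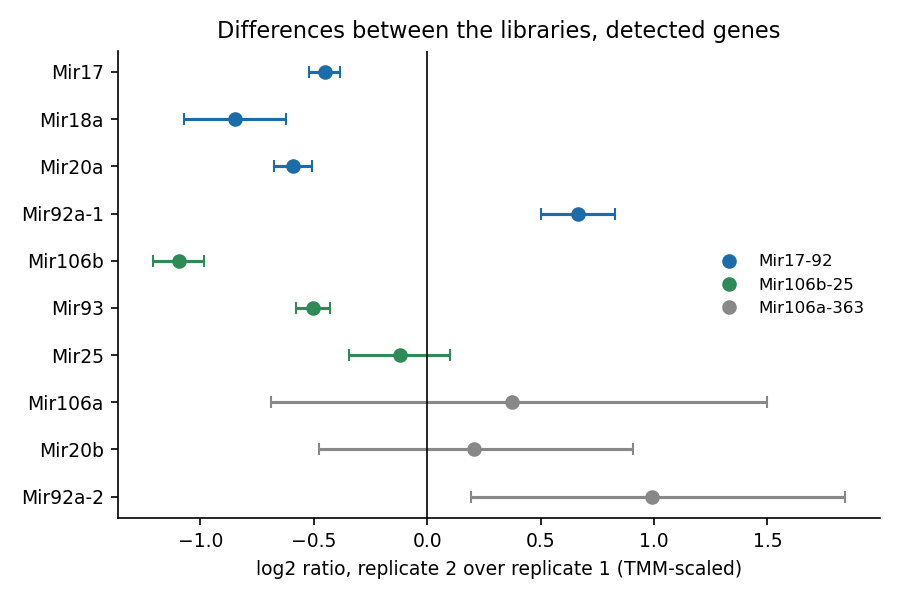
Log2 ratio of replicate 2 over replicate 1 after TMM scaling for the detected genes of Mir17-92, Mir106b-25 and the X-chromosome cluster Mir106a-363, with exact 95% counting intervals as bars. Mir92a-1 (0.66) and Mir92a-2 (0.99) lie to the right of 0, and the 5 members called lower lie to its left.

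As summed clusters, Mir17-92 was 1.33-fold lower in replicate 2 (1.28 to 1.37) and Mir106b-25 1.56-fold lower (1.50 to 1.63). There were 0.718 reads of Mir106b-25 per read of Mir17-92 in replicate 1 and 0.609 in replicate 2, a mean of 0.663 ± 0.0773 (SD, n = 2). The ratio in replicate 2 was 0.848 times that in replicate 1 (0.804 to 0.894, p = 9.35e-10, two-sided Fisher's exact test on reads). Restricted to members whose main arm lies in a single hairpin, which leaves out Mir92a-1 and Mir19b-1, it was 0.920 times (0.871 to 0.971, p = 0.00255, Fisher's exact test). Without the leading member of each cluster, Mir17 and Mir93, it was 0.690 times (0.634 to 0.751, p = 2.44e-18, Fisher's exact test).

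**Figure D4:**
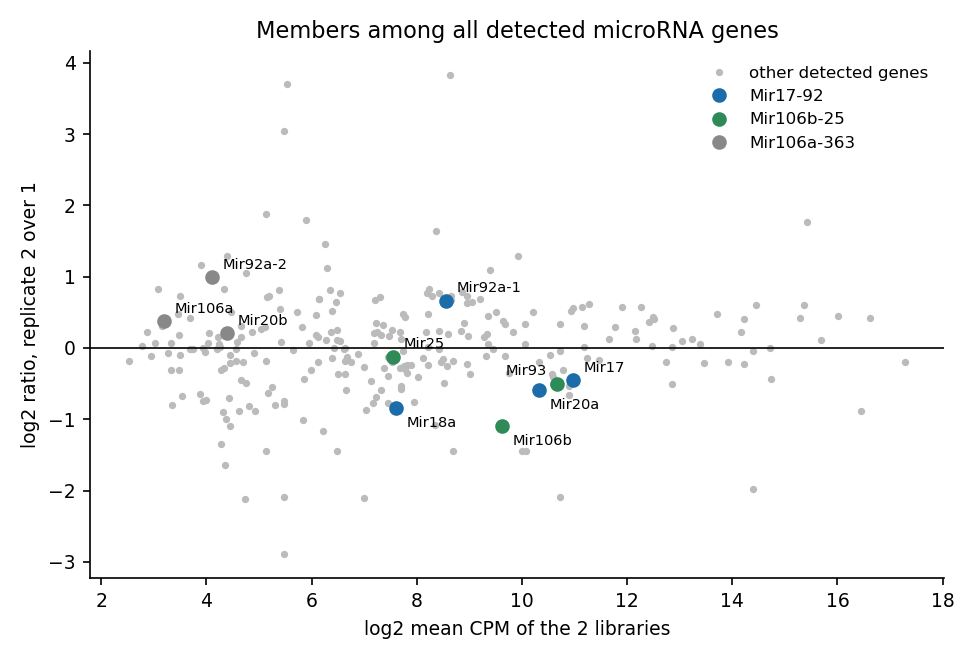
Log2 ratio of replicate 2 over replicate 1 after TMM scaling against log2 mean CPM for the 273 detected microRNA genes, with the members and the X-chromosome cluster coloured. All but Mir106b of the detected members lie within 1 log2 unit of 0, among other genes of similar level.

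Marker microRNAs of muscle fibres and of other cell types also differed between the libraries. Of the 7 detected skeletal muscle genes 4 were called higher in replicate 2 and 0 lower. The summed level of the list, mostly that of Mir206, was 3.31-fold higher. Mir206 had 32871 and 139295 reads, Mir499 had 86 and 1527, and Mir208b, below the detection limit in replicate 1, had 5 and 889. The other detected genes of the list differed less: Mir486 had 1.26 and Mir1a-2 1.14 times its scaled level of replicate 1. Mir133b, Mir133a-1 and Mir1a-1 were not called, at 1.05, 0.735 and 0.603 times. All marker values leave out multiply matched reads. For a gene whose arm lies in several hairpins they do not measure the mature microRNA or its difference between the libraries. Both erythroid genes, Mir144 and Mir451a, were lower in replicate 2, and their summed share was 3.73% and 0.898%. The smooth muscle genes Mir143 and Mir145a were both lower as well, with 12.0% and 6.25%. Of 4 leukocyte genes 2 were lower and 2 higher (0.142% and 0.209% in sum), and of 3 endothelial genes only Mir126a was called, as higher (8.86% and 11.3%). No marker of these lists was at 0 reads. Their part in the members' differences was not tested. In bulk tissue, fewer cells of a type and less RNA per cell cannot be told apart.

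The paralogous cluster Mir106a-363, on the minus strand of the X chromosome, was close to the limit of detection. Its 6 genes held 75 reads in replicate 1 and 119 in replicate 2, which is 1.05 and 1.77 reads per 100 of Mir17-92. Mir20b had 32 and 46 reads, Mir92a-2 had 19 and 47, Mir106a 13 and 21, and Mir363 11 and 5, while Mir18b and Mir19b-2 had none. Of the 3 detected genes, Mir92a-2 was 1.99-fold higher in replicate 2 (1.14 to 3.59, adjusted p = 0.0224 by the exact binomial test) and the others did not pass. Mir92a-2 and Mir92a-1 were thus both called higher, and no other gene of the 3 clusters was. Reads of exactly the arm they share are credited to neither gene, so these calls do not measure miR-92a-3p. That of Mir92a-2 also rests on few reads. MiR-106a-5p differs from miR-17-5p by U10A alone.

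Beyond the 3 clusters, 4 measured genes carry a member's seed. Mir32, with the miR-92a seed, had 64 and 43 reads and was 1.85-fold lower in replicate 2 (1.24 to 2.79). Mir92b had 6 and 3 reads, and Mir367 and Mir6383 had none.

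The detected genes nearest to the leading members were found by distance in log2(CPM + 1) over the 2 libraries, a likeness that rests on 2 values per gene. Nearest to Mir17 were Mir145a, Mir29a and Mir532, at distances of 0.14, 0.20 and 0.27. Nearest to Mir93 were Mir15a, Mir140 and Mir16-1, at 0.11, 0.13 and 0.16. Mir15a had 1851 and 1239 CPM, against 1944 and 1311 for Mir93.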

How the data were processed

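Small RNA libraries of total RNA with a size range under 30 bases, per the labels, were counted by the authors on build mm10 with GENCODE M21, per the deposited read-me text. The deposited values are raw counts per microRNA hairpin gene, 1 table per library. Which aligner and counter were used is not given in the sources used here. Columns were read, from the layout and the values, as counts without regard to strand, on the strand of the gene and on the opposite strand, and the strand of the gene was used. Reads credited to no gene were kept out of the library sizes: 75.4% and 77.6% of all reads matched several places, 6.37% and 5.98% were unmapped and 1.49% and 1.65% lay outside microRNA genes. Symbols and positions came from GENCODE M21, and sequences from RefSeq for GRCm38.p6, matched for all 9 members and all 6 genes of Mir106a-363.

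TMM factors were 1.02 and 0.977 (edgeR 4.0.16, R 4.3.3). The exact binomial test and Fisher's exact test cover counting error only. The binomial test was run on simulated counts that held counting error alone, the error it assumes. That run says nothing of its calls where libraries also differ by other spread. Named were the members, the X-chromosome cluster, genes that share a seed, and the 3 genes nearest in level to the highest member of each cluster. The members and lists were chosen with earlier results of these data known. Alternatives were other scalings, strand, read minimum, totals, pseudocount, members and replicates, and edgeR's exact test. Other steps ran in Python 3.11.15 with scipy 1.17.1, pandas 2.3.3 and numpy 2.4.6, and plots in matplotlib 3.10.9.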

Additional observations from a re-analysis of the deposited data

Results flagged for a closer look

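Reads with several genomic matches, which belong to no gene in the tables, numbered 7195252 in replicate 1 and 10919725 in replicate 2 over the whole library. How many of them belong to miR-19b or miR-92a, whose arms each lie in 2 hairpins, cannot be read from the tables. On the opposite strand the 9 members had 0 reads in both libraries. Groups of 2 libraries are too small for a search for outlying samples.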

How the results depend on the processing

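Leaving out each replicate in turn gave shares of 0.324% to 0.450% for Mir17-92 and 0.197% to 0.323% for Mir106b-25, and ratios of 0.609 to 0.718 reads of Mir106b-25 per read of Mir17-92. Counts without regard to strand raised the shares to 0.558% and 0.376%, since fewer reads are then assigned to genes in all, and multiply matched reads added to the total lowered them to 0.0667% and 0.0450%. Without the leading member of each cluster, Mir17 and Mir93, the ratio of the clusters was 0.511. The count of members called was 6, with 5 lower and 1 higher, under total, RLE and upper-quartile scaling, with at least 50 reads, with no filter, without regard to strand and without the most abundant gene. It was 0, with 0 lower and 0 higher, by the exact test of edgeR under a common dispersion. No detected member's ratio changed direction under the 3 other scalings, without regard to strand, without the most abundant gene or with edgeR. The planned restriction to arms with 1 copy in the genome was made on annotated hairpins, because no genome sequence was used here. No paired analysis was possible because there is 1 group. Spread between animals and between preparations cannot be told apart.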
